A study of Mus musculus with 6 samples.

Results

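The Myc, Max and Mxd network was followed in CD8+ T cells before and after priming. Its members were 10 genes set by name (Myc, Mycn, Max, Mxd1, Mxd3, Mxd4, Mxi1, Mnt, Mga and Mlx), out of 19938 genes with a named probe set on the array, and each was read from its only probe set that carried a single gene symbol. All 10 members passed the filter on dim probe sets, which left 11147 genes for testing. RNA of 6 samples had been hybridised to Affymetrix arrays, 1 array per sample, in 3 groups of 2. Every sample came from the spleen of female C57BL/6 mice carrying the Pmel-1 T cell receptor transgene, which recognises the melanoma antigen gp100, so all groups shared that receptor. Naive cells were sorted as CD8+ Thy1.1+ straight from the spleen. IL-2 cells and IL-12 cells met gp100 for 4 days and were given the named cytokine for 6 days, and the labels describe no sort of these cells. The study set IL-12 priming beside IL-2 priming to look for genes needed for activity against tumours.

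Myc and its relative Mycn are transcription factors of the basic helix-loop-helix leucine zipper class that bind DNA as pairs with Max. Such pairs occupy E-boxes and raise genes for ribosome production, nucleotide and amino acid metabolism and cell division, and Myc is known to drive the growth and metabolic switch of activated T cells. Mxd1, Mxd3, Mxd4 and Mxi1 compete for Max and for the same sites and recruit the Sin3 and histone deacetylase corepressor. All but Mxd3 are known mainly from cells that leave the cycle and differentiate, while Mxd3 is known from dividing cells in S phase. Mnt is a more widely present antagonist of the same kind, Mga is a very large Max partner that sits in a Polycomb complex, and Mlx pairs with Mnt, with some Mxd proteins and with the glucose-sensing factor Mlxip.

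The canonical E-box, CACGTG, reads the same on both strands and was sought in the RefSeq promoter windows of build GRCm38.p6, which run from 250 bases before a start site to 50 bases after it. Of the 9 members with a window, 4 held it (Max, Mxd4, Mnt and Mlx), which is 44.4%. Among all genes with a window 8.09% held it, and among tested genes 11.8%. Mycn, Mxd1, Mxd3, Mxi1 and Mga had a window without these letters. A match is a description of the sequence and not a measured binding site. The E-boxes of the other three members are shown with 12 bases on each side, and Mxd4, the member that differed most between the cytokines, with all 250 bases before its start site; capitals mark the E-box and positions are counted from the start site to its leading base.
Max, chr12:76962234-76962263, minus strand, position -3: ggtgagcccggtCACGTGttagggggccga
Mnt, chr11:74830789-74830818, plus strand, position -123: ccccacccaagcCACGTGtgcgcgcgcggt
Mlx, chr11:101087238-101087267, plus strand, position -40: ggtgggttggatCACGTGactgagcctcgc
Mxd4, chr5:34187711-34187960, minus strand, position -219: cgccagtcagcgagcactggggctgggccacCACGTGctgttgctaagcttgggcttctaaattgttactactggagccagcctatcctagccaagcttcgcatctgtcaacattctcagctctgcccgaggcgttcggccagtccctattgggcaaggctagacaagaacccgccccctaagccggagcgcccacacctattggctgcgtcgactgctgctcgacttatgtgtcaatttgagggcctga

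Values below are log2 RMA values, group values are means ± SD over 2 arrays, and changes are log2 fold changes ± SE of the limma fit with Benjamini-Hochberg adjusted p-values over all tested genes. The 2 arrays within each group correlated with r = 0.986 (naive), 0.994 (IL-2) and 0.992 (IL-12), taken over genes, which are no replicates. Of 9 measured CD8 T cell identity genes, all passed the filter, and 5 were lower and 0 higher in IL-12 than in IL-2 cells and 6 lower than in naive cells, with mean levels of 11.89 and 11.85 in IL-12 cells and 12.15 to 12.28 on the other arrays. The mean level of 11 B cell markers was 8.82 and 8.69 on the naive, 6.51 on each IL-2 array, and 7.38 and 7.45 in IL-12 cells, while that of 11 myeloid and dendritic markers was 7.78 and 8.03, 6.57 and 6.46, and 6.74 and 6.75. Not all myeloid and dendritic markers fell. Cst3 changed by 0.35 in IL-2 and 0.24 in IL-12 against naive cells, neither called. Itgam was highest in IL-12 cells (7.41 and 7.63) but read 6.19 and 6.44 on the naive and 6.55 and 6.59 on the IL-2 arrays. Those values lay under the filter level of 6.83, so Itgam was tested only through its IL-12 arrays and its rise supports nothing. Cd14, S100a8 and S100a9 stayed under the filter. All 11 B cell markers fell in both primed groups against naive cells and 9 of 11 were higher in IL-12 than in IL-2 cells. Of all tested genes 19.9% and 26.7% were lower in IL-2 and IL-12 than in naive cells. Between IL-12 and IL-2 cells 9.82% of all tested genes were higher and 11.0% lower. Cr2, Fcer2a, Ebf1 and Blk, and the myeloid markers Lyz2, Csf1r, Adgre1 and Mpeg1, lay under 6.83, the filter level, on all primed arrays. They were tested only through their naive arrays, so their falls support nothing. The B cell markers moved with the comparisons, and their part in the members' values was not tested. Means of 5 natural killer markers were 7.28 and 7.18, 6.21 and 6.03, and 6.04 and 6.07 in the same order. Only Tyrobp and Eomes among them were tested, and Ncr1, Klrb1c and Klra8 stayed under the filter. Tyrobp fell by 2.37 in IL-2 and 1.86 in IL-12 against naive cells, and Eomes by 0.86 and 2.21. The means of 5 CD4 and regulatory T cell markers were 6.81 and 6.80 in naive cells and higher on all primed arrays, at 7.98 on IL-2 replicate 1 and 7.89 and 7.92 in IL-12 cells. Ctla4 and Zbtb7b largely carried that rise, by 4.2 and 1.87 in IL-2 and 3.68 and 1.54 in IL-12 cells. Cd4, not tested, read 6.57 and 6.61 on the naive and 6.19 to 6.44 on the primed arrays. Foxp3 changed by 0.03 in IL-2 and -0.02 in IL-12 cells and was not called. Lower transcript levels per cell and fewer cells of a type cannot be told apart in bulk RNA. Separate animals or cultures are not named for the arrays in any label, so p-values reflect only the spread among these arrays, which may be technical.

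Mxd4 was the member that set the cytokines apart: it was high in naive and IL-2 cells and fell in IL-12 cells. Mxd3 rose and Mga fell under both cytokines against naive cells, while Myc itself moved little and rose only in the IL-12 comparison with naive cells. Between IL-12 and IL-2 cells 1 of 10 members (Mxd1) was higher, where 9.82% of all tested genes were, and 1 (Mxd4) was lower, where 11.0% were. Between IL-2 and naive cells 3 members (Mycn, Mxd3 and Mxd4) were higher against a background of 25.8%, and 1 (Mga) was lower against 19.9%. Between IL-12 and naive cells 6 members (Myc, Mycn, Mxd1, Mxd3, Mxi1 and Mlx) were higher against 31.2%, and 3 (Mxd4, Mnt and Mga) were lower against 26.7%. Median changes of the members were 0.07, 0.21 and 0.39 in these comparisons, beside 0.02, 0.01 and 0.04 over all tested genes. Their counts against IL-2 cells lay at the background. The 9 calls between IL-12 and naive cells were 5 without naive replicate 1 and 4 without IL-12 replicate 1, and the 4 calls between IL-2 and naive cells were 2 without IL-2 replicate 2. The 3 comparisons share their arrays in pairs and are not independent of each other.

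**Figure D1:**
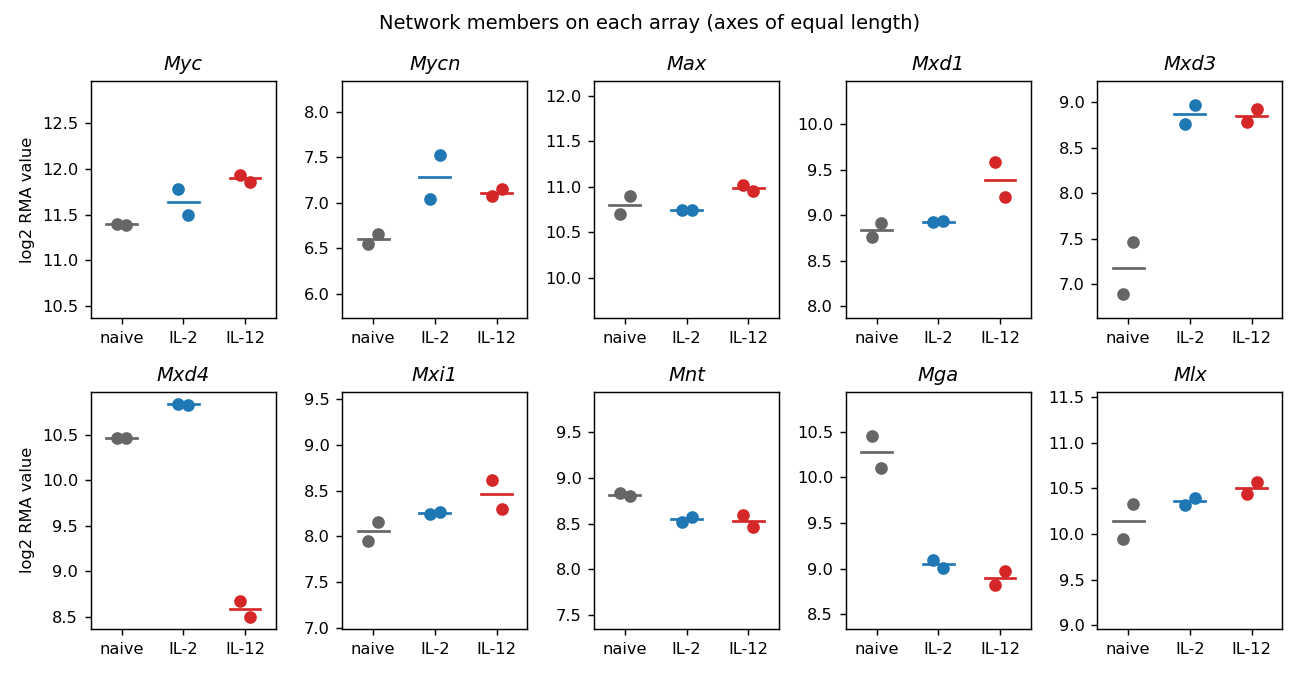
Log2 RMA value (vertical axes of equal length) of each of the 10 members on the naive (grey), IL-2 (blue) and IL-12 (red) arrays, points being arrays and bars group means of 2 arrays. The Mxd4 values of 8.68 and 8.50 on the IL-12 arrays lie below all others of that gene, and the Mga values of the naive arrays, 10.46 and 10.10, above all others.

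**Figure D2:**
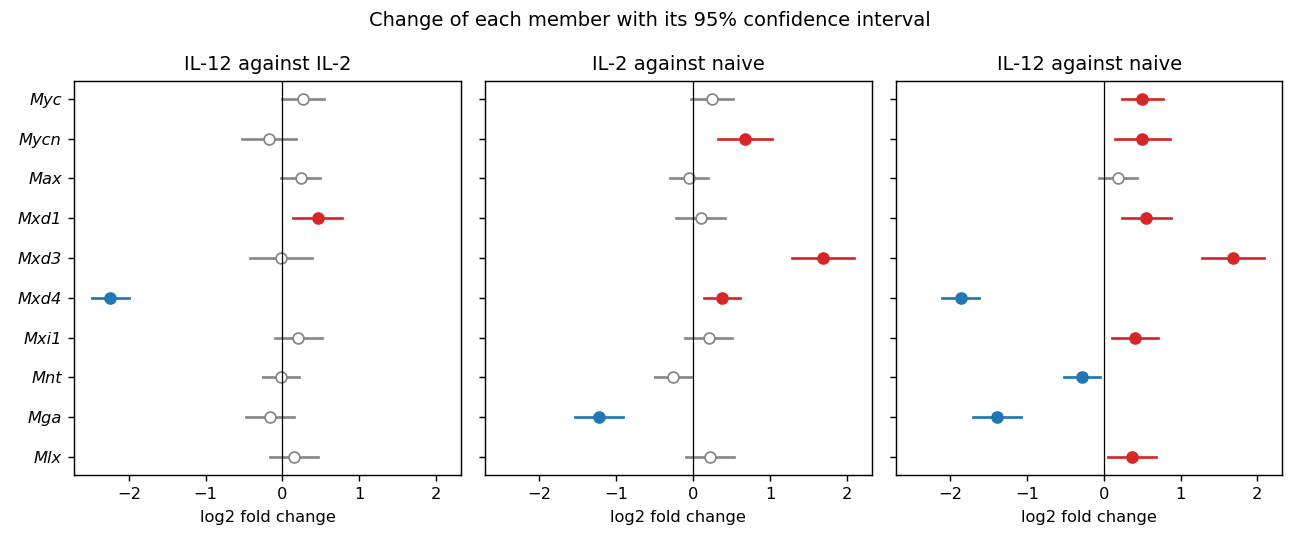
Log2 fold change of each member in the 3 comparisons, with lines for the 95% confidence interval of the limma fit. Filled points passed an adjusted p of 0.05 (red higher, blue lower) and open points did not. Mxd4 at -2.24 stands far to the left between IL-12 and IL-2, and Mxd3 at 1.69 and 1.68 far to the right in both comparisons with naive cells.

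Among the growth drivers, Myc (probe set 10424400), the central activator of the network, read 11.40 and 11.39 on the naive, 11.78 and 11.50 on the IL-2 and 11.94 and 11.86 on the IL-12 arrays. The 3 groups did not overlap, but the IL-2 arrays lay 0.28 apart and came within 0.09 of naive and 0.08 of IL-12 cells. Against naive cells Myc rose by 0.50 ± 0.12 in IL-12 cells (limma adjusted p = 0.00622), a 1.42-fold change that kept its call in all alternatives tried. In IL-2 cells the change was 0.24 ± 0.12 (limma adjusted p = 0.131), and between IL-12 and IL-2 cells it was 0.26 ± 0.12 (limma adjusted p = 0.157), with a 95% confidence interval from -0.01 to 0.54.

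Mycn (probe set 10399421), the N-myc relative best known from embryonic and neural tissue, read 6.55 and 6.66 on the naive, 7.04 and 7.52 on the IL-2 and 7.07 and 7.15 on the IL-12 arrays. Both naive arrays lay under 6.83, the level that 2 of 6 arrays had to pass, so Mycn was tested only through its primed arrays. It had to be higher there, and its calls against naive cells, although counted among the members above, support nothing. Both primed groups lay above the naive arrays and overlapped each other. The fitted changes against naive cells were 0.68 ± 0.16 in IL-2 cells (limma adjusted p = 0.00717) and 0.50 ± 0.16 in IL-12 cells (limma adjusted p = 0.0212). The change in IL-2 cells was not called without IL-2 replicate 2 (0.0566), nor that in IL-12 cells when naive replicate 1 (0.0833) or either IL-12 array (0.0596 and 0.0977) was omitted. The difference between the primed groups was -0.17 ± 0.16 (limma adjusted p = 0.474) and turned to 0.07 without IL-2 replicate 2.

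Max (probe set 10401128), the shared DNA-binding partner of Myc and Mxd proteins and one of the members with an E-box in its promoter window, passed the test in none of the comparisons. It read 10.70 and 10.90 on the naive, 10.75 and 10.75 on the IL-2 and 11.02 and 10.95 on the IL-12 arrays. The IL-12 arrays were the highest and did not overlap the others, with a change of 0.24 ± 0.11 against IL-2 (limma adjusted p = 0.161) and 0.18 ± 0.11 against naive cells (limma adjusted p = 0.179). The latter was called without naive replicate 2 (0.0396). The 95% confidence intervals ran from -0.01 to 0.48 and from -0.06 to 0.43, so rises above 0.48 between the cytokines lay outside the interval. IL-2 cells differed from naive cells by -0.05 ± 0.11 (limma adjusted p = 0.735), a value of 0.05 with arrays centred on their medians or without naive replicate 2.

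Among the antagonists, Mxd4 (probe set 10529375), a Max partner and repressor, read 10.46 and 10.46 on the naive, 10.84 and 10.83 on the IL-2 and 8.68 and 8.50 on the IL-12 arrays. The lower IL-2 array stood 2.14 above the higher IL-12 array. Mxd4 was lower in IL-12 than in IL-2 cells by -2.24 ± 0.11 (limma adjusted p = 8.79e-06), the 12th largest fall of all 11147 tested genes. Against naive cells it fell by 1.86 on the log2 scale in IL-12 cells (SE 0.11, limma adjusted p = 1.42e-06), a 3.64-fold decrease. It rose in IL-2 cells by 0.38 ± 0.11 (limma adjusted p = 0.0181), so the changes from naive cells ran in opposite directions. Both falls kept their call in all alternatives, and the small rise was not called without IL-2 replicate 1 (0.107) or 2 (0.0889), after quantile normalization (0.0531) or with centring on tested genes (0.0604).

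Mxd3 (probe set 10409424), the Mxd protein known from dividing cells in S phase, showed the other pattern. It read 6.89 and 7.46 on the naive, 8.76 and 8.97 on the IL-2 and 8.78 and 8.92 on the IL-12 arrays. Every primed array stood at least 1.31 above the higher naive array, although the naive arrays lay 0.57 apart. Mxd3 rose by 1.69 ± 0.18 in IL-2 cells (limma adjusted p = 9.81e-05) and by 1.68 ± 0.18 in IL-12 cells (limma adjusted p = 6.31e-05), 3.23-fold and 3.20-fold. Between the primed groups the difference was -0.01 ± 0.18 (limma adjusted p = 0.966), with a 95% confidence interval from -0.42 to 0.39, and its sign changed with the scaling.

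Mxd1 (probe set 10545921), the founding Mxd repressor, read 8.76 and 8.91 on the naive, 8.92 and 8.94 on the IL-2 and 9.58 and 9.20 on the IL-12 arrays. IL-12 arrays were the highest, and IL-2 arrays lay 0.01 above naive ones. Mxd1 rose by 0.55 ± 0.14 in IL-12 against naive cells (limma adjusted p = 0.00791), not called once IL-12 replicate 1 was omitted (0.0695). Its excess over IL-2 cells, 0.46 ± 0.14, lay just inside the threshold (limma adjusted p = 0.0476). That call did not survive omission of IL-2 replicate 1 (0.193), of IL-2 replicate 2 (0.196) or of IL-12 replicate 1 (0.284), nor with no filter (0.063), after quantile normalization (0.0506) and with median centring (0.0582), so the count of members higher in IL-12 than in IL-2 cells rests on a marginal value.

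Mxi1 (probe set 10463930), the Mxd family member also known as Mad2, read 7.95 and 8.16 on the naive, 8.25 and 8.27 on the IL-2 and 8.62 and 8.30 on the IL-12 arrays. The groups followed each other without overlap, with gaps of 0.09 and 0.03. IL-12 cells exceeded naive cells by 0.41 ± 0.13 (limma adjusted p = 0.0283), which was not called when naive replicate 1 (0.118), either IL-2 array (0.0525 each) or IL-12 replicate 1 (0.22) was omitted, nor under 3 settings that kept all arrays of the comparison (0.0517 to 0.0545). The other differences were 0.20 ± 0.13 in both IL-2 against naive and IL-12 against IL-2 cells (limma adjusted p = 0.252 and 0.314).

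Of the remaining members, Mga (probe set 10475051), the Max partner in a Polycomb complex, fell most on leaving the naive state. It read 10.46 and 10.10 on the naive, 9.10 and 9.01 on the IL-2 and 8.82 and 8.97 on the IL-12 arrays, so both naive arrays stood far above all primed arrays, which lay close together. Mga fell by 1.23 on the log2 scale in IL-2 cells (SE 0.14, limma adjusted p = 0.000142) and by 1.39 in IL-12 cells (SE 0.14, limma adjusted p = 4.12e-05), and both calls held in all alternatives. The primed groups differed by -0.16 ± 0.14 (limma adjusted p = 0.445), with a 95% confidence interval from -0.47 to 0.15.

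Mnt (probe set 10378497), the general Max-bound antagonist of Myc, read 8.83 and 8.80 on the naive, 8.52 and 8.57 on the IL-2 and 8.59 and 8.46 on the IL-12 arrays. Naive arrays were the highest and overlapped neither primed group. The change against naive cells was -0.29 ± 0.10 in IL-12 cells (limma adjusted p = 0.0385) and -0.27 ± 0.10 in IL-2 cells (limma adjusted p = 0.0613). The IL-12 call was lost in 11 of 16 alternatives, among them the loss of any array other than naive replicate 2 (0.0655 to 0.222), the replicate block (0.0521) and median centring (0.233). The IL-2 difference was called with centring on tested genes (0.0193), and the primed groups differed by -0.02 ± 0.10 (limma adjusted p = 0.914), with a sign that depended on the scaling.

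Mlx (probe set 10381238), the partner of Mnt and of the glucose-sensing Mondo proteins, read 9.95 and 10.33 on the naive, 10.32 and 10.40 on the IL-2 and 10.44 and 10.57 on the IL-12 arrays. The naive and IL-2 arrays overlapped, since naive replicate 2 lay at the level of the IL-2 arrays. IL-12 cells exceeded naive cells by 0.37 ± 0.14 (limma adjusted p = 0.0474), a call lost in 10 of 16 alternatives, among them the loss of any array other than naive replicate 2 (0.0775 to 0.214). Changes of 0.22 ± 0.14 in IL-2 against naive cells (limma adjusted p = 0.23) and 0.15 ± 0.14 between the primed groups (limma adjusted p = 0.489) did not pass, though the former was called without naive replicate 2 (0.0181).

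Myc was set against its Mxd antagonists by changes from the naive mean, because levels of different probe sets have no common scale. The change of Myc less the mean change of Mxd1, Mxd3, Mxd4 and Mxi1 was 0.12 and -0.12 on the naive, -0.18 and -0.52 on the IL-2 and 0.26 and 0.36 on the IL-12 arrays. On the IL-12 arrays Myc thus stood above the antagonists' mean by 0.31 ± 0.07 and on the IL-2 arrays below it by -0.35 ± 0.24 (mean ± SD, n = 2 arrays; naive 0.00 ± 0.18), a gap of 0.66 from one cytokine to the other. Without Mxd4 in the mean the values were -0.24 and -0.60 in IL-2 cells and -0.43 and -0.32 in IL-12 cells, and the difference between the cytokines was 0.05. The values below 0 in primed cells were carried largely by Mxd3. It rose by 1.69 in IL-2 cells, beside 0.10 for Mxd1, 0.38 for Mxd4, 0.20 for Mxi1 and 0.24 for Myc. In IL-12 cells Mxd3 rose by 1.68, beside 0.55 for Mxd1, 0.41 for Mxi1 and 0.50 for Myc. A mean without Mxd3 was not formed. The contrast between the cytokines in this measure rests on Mxd4: the change of Myc less that of Mxd4 alone was 0.00 and -0.27 in IL-2 cells but 2.32 and 2.41 in IL-12 cells. Mycn changed by 0.43 and 0.92 in IL-2 cells, around the antagonists' mean changes of 0.56 and 0.62, and by 0.47 and 0.54 in IL-12 cells, above their 0.29 and 0.10. The order in IL-12 cells rests on Mxd4 as well, because the mean of Mxd1, Mxd3 and Mxi1 alone lay above Mycn there. Mxd3 largely carried that mean. Mycn passed the filter only through its primed arrays, so its changes from naive cells support nothing here. These sums over members are descriptions and carry no test.

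**Figure D3:**
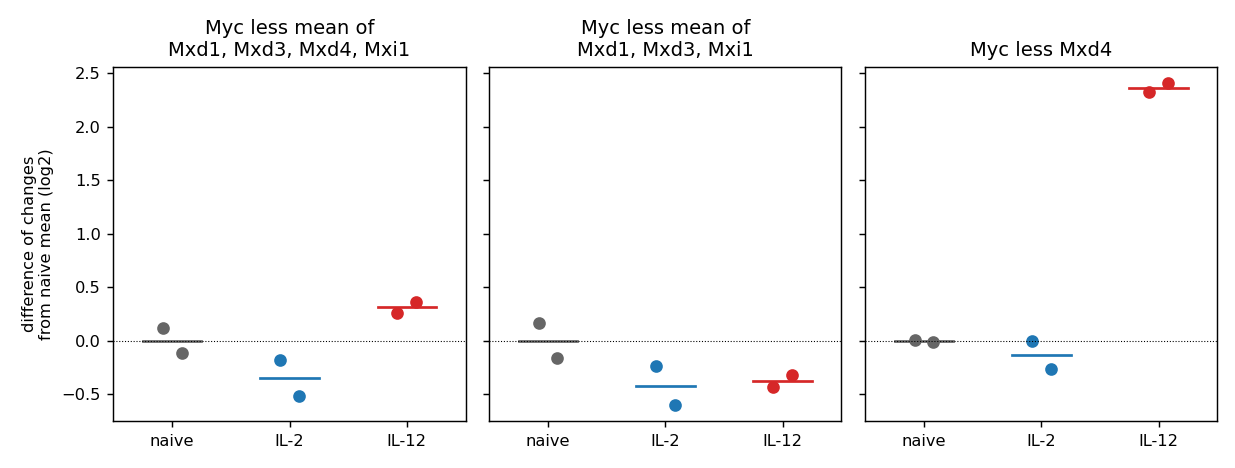
Change of Myc from the naive mean less the change of its antagonists (vertical axis, log2) on each array, with bars for group means of 2 arrays. The left panel averages Mxd1, Mxd3, Mxd4 and Mxi1, the middle one leaves out Mxd4 and the right one uses Mxd4 alone. The IL-12 arrays lie at 0.26 and 0.36 on the left, at -0.43 and -0.32 in the middle and at 2.32 and 2.41 on the right.

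The genes most like a member were sought over the 6 arrays for the 3 members whose group means spanned at least 1, among 2094 tested genes that also spanned it. Closest to Mxd4 were Cln3, a lysosomal membrane protein gene (Pearson r = 0.997), Spata6 (0.996) and Klrd1, which encodes the receptor chain CD94 (0.991). Klrd1 read 11.38 and 11.20 on the naive, 11.69 and 11.64 on the IL-2 and 10.29 and 10.20 on the IL-12 arrays, the same order as Mxd4. Closest to Mxd3 were the mitochondrial ribosomal protein gene Mrpl45, Tspan31 and the nucleoside transporter gene Slc29a1 (0.998 each). Closest to Mga were Atrn (0.999), the palmitoyltransferase gene Zdhhc17 and the histone acetyltransferase gene Kat6a (0.998 each). The 6 arrays fall into 3 groups and share their normalization, so these correlations mainly describe group means.

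Many genes described as activated by Myc were higher in IL-12 than in IL-2 cells, in each of 3 functional lists, beside 9.82% of all tested genes. Of 25 tested ribosome biogenesis genes, 16 were higher, 1 lower and 8 not called, with a median log2 fold change of 0.57 beside 0.02 over all tested genes. Polr1b, a subunit of RNA polymerase I, read 9.64 and 9.75 on the naive, 8.99 and 8.89 on the IL-2 and 9.79 and 9.92 on the IL-12 arrays, and thus lay lowest in IL-2 cells. It was higher in IL-12 than in IL-2 cells by 0.91 ± 0.11 (limma adjusted p = 0.000667), with Mybbp1a (0.76 ± 0.12), the ribosome assembly factor gene Bop1 (0.62 ± 0.11) and the nucleolar gene Nop56 (0.73 ± 0.13). The gene that was lower was Wdr12, by -0.37 ± 0.11 (limma adjusted p = 0.0491). Against naive cells 3 of these genes were higher and 6 lower in IL-2 cells (median -0.07, all tested genes 0.01), and 14 were higher and 0 lower in IL-12 cells (median 0.38, all tested genes 0.04), where 31.2% of all tested genes were higher. The 6 were 2 without naive replicate 2, without IL-2 replicate 2, with array weights or with median centring and up to 9 with tested-gene centring, with medians from -0.25 to 0.08, so the direction of this list in IL-2 cells depended on the setting. The 14 were 9 without IL-12 replicate 2. Pa2g4, a growth-linked nucleolar gene, rose under both cytokines, by 0.67 ± 0.13 and 1.24 ± 0.13.

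Of 18 metabolic genes described as Myc targets, 12 were higher in IL-12 than in IL-2 cells and 0 lower (median 0.72), beside 9.82% and 11.0% of all tested genes. Besides the hexokinase gene Hk2, Shmt2 and the amino acid transporter gene Slc7a5, which together with it had the smallest adjusted p of the list, Tfrc, the transferrin receptor gene, was higher by 0.81 ± 0.12 (limma adjusted p = 0.00193). Tfrc read 8.48 and 8.44 on the naive, 9.98 and 9.91 on the IL-2 and 10.88 and 10.63 on the IL-12 arrays, so the groups stood apart in that order. Odc1, the polyamine synthesis gene long used as a Myc target, rose against naive cells by 1.36 ± 0.12 in IL-2 and 1.68 ± 0.12 in IL-12 cells. In all, 10 of the 18 rose and 1 fell in IL-2 against naive cells, and 15 rose and 0 fell in IL-12 against naive cells, where 25.8% and 31.2% of all tested genes rose. Hk2 is among these rises, but read 6.44 and 6.48 on the naive arrays, under the filter level of 6.83. It was tested only through its primed arrays, so its rises against naive cells support nothing.

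Of 16 cell cycle and translation targets, 8 were higher in IL-12 than in IL-2 cells and 0 lower (median 0.41). Eif4e, which encodes the cap-binding protein, was higher by 0.64 ± 0.12 (limma adjusted p = 0.00622). Against naive cells 11 rose and 1 fell in IL-2 cells and 14 rose and 1 fell in IL-12 cells, led by the replication regulator E2f2, up by 3.52 ± 0.13 and 3.62 ± 0.13, again beside rises in 25.8% and 31.2% of all tested genes. Single arrays decided many calls between the cytokines: without IL-2 replicate 2 the numbers higher were 2 of 25 ribosome, 7 of 18 metabolic and 0 of 16 cell cycle and translation genes, and without IL-12 replicate 2 they were 6, 9 and 1. The medians moved less and stayed between 0.49 and 0.69, 0.61 and 0.77, and 0.32 and 0.49 over all alternatives.

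Of 13 genes described as repressed by Myc, 5 were lower in IL-12 than in IL-2 cells and 0 higher (median -0.37), beside 11.0% and 9.82% of all tested genes. Cdkn1b, which encodes the cell cycle inhibitor p27, read 11.32 and 11.37 on the naive, 11.39 and 11.45 on the IL-2 and 10.82 and 10.57 on the IL-12 arrays. It was lower in IL-12 than in IL-2 cells by -0.73 ± 0.11 (limma adjusted p = 0.00306). The RNA-binding protein gene Zfp36l2 (-0.75 ± 0.10), the antiproliferative gene Btg2 (-1.01 ± 0.15) and Ccng2 (-0.46 ± 0.11) were lower as well. Cdkn2c, which encodes the inhibitor p18, rose instead against naive cells, by 2.52 ± 0.21 in IL-2 and 1.83 ± 0.21 in IL-12 cells, and the list as a whole held 5 rises and 2 falls in IL-2 and 4 rises and 5 falls in IL-12 against naive cells. All tested genes rose in 25.8% and fell in 19.9% of cases in the former and 31.2% and 26.7% in the latter, and the 5 falls were 3 when any IL-2 or IL-12 array was omitted, the 2 falls 1 without naive replicate 1 or IL-2 replicate 1. The number lower in IL-12 than in IL-2 cells was 3 when either IL-2 array or IL-12 replicate 1 was omitted.

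The lists of proteins that work with the members were mixed. Their counts between the cytokines stand beside 9.82% of all tested genes higher and 11.0% lower in IL-12 than in IL-2 cells. Of 17 genes for Myc cofactors and Myc turnover, 5 were higher and 1 lower in IL-12 than in IL-2 cells (median 0.12), the 5 becoming 0 when either IL-2 array or IL-12 replicate 2 was left out and 1 without IL-12 replicate 1. The one that was lower was Usp28, a deubiquitinase known to stabilise Myc protein, which read 9.94 and 9.82 on the naive, 9.09 and 9.29 on the IL-2 and 8.18 and 8.40 on the IL-12 arrays (IL-12 less IL-2 -0.90 ± 0.12, limma adjusted p = 0.00153). Ruvbl1, a helicase cofactor of Myc, was higher by 0.67 ± 0.14 (limma adjusted p = 0.0116). Cip2a, which encodes an inhibitor of the phosphatase that destabilises Myc protein, read 5.94 and 6.07 on the naive, 10.20 and 10.14 on the IL-2 and 10.27 and 10.57 on the IL-12 arrays. Both naive arrays lay under 6.83, the filter level, so Cip2a was tested only through its primed arrays. Its rises against naive cells, although counted below, support nothing. In IL-2 against naive cells 7 rose and 6 fell (all tested genes 25.8% and 19.9%), the 7 becoming 3 without IL-2 replicate 2, and in IL-12 against naive cells 9 rose and 6 fell (31.2% and 26.7%).

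Of 9 corepressor genes serving Mxd and Mnt, 3 were higher and 0 lower in IL-12 than in IL-2 cells: Hdac2 by 0.75 ± 0.12, the Sin3 complex subunit gene Sap30 by 0.60 ± 0.13 and Rbbp7 by 0.40 ± 0.10, and 1 of these calls was left when either IL-2 array or IL-12 replicate 2 was omitted. Sin3b, a scaffold of that complex, fell against naive cells by 0.64 in IL-2 and 0.75 in IL-12 cells on the log2 scale. Sap30 read 6.32 and 6.61 on the naive arrays, under the filter level of 6.83, and was tested only through its primed arrays. Its rises against naive cells, although counted next, support nothing. Against naive cells 4 rose and 1 fell in IL-2 cells (all tested genes 25.8% and 19.9%) and 5 rose and 2 fell in IL-12 cells (31.2% and 26.7%). The 4 were 1 without either IL-2 array and 2 without naive replicate 1, and the 2 were 1 without any single IL-2 or IL-12 array. Of 11 Polycomb partners of Mga, 2 were higher and 2 lower between the cytokines, and 1 of each without any single IL-2 or IL-12 array. Pcgf6, the subunit that defines that complex, read 8.95 and 9.14 on the naive, 9.16 and 9.08 on the IL-2 and 9.80 and 10.07 on the IL-12 arrays and was higher in IL-12 than in IL-2 cells by 0.82 ± 0.13 (limma adjusted p = 0.00302). Tfdp1, the E2F dimer partner gene, rose against naive cells by 1.71 ± 0.13 in IL-2 and 2.15 ± 0.13 in IL-12 cells, while Mga itself fell. Of these partners 5 rose and 1 fell in IL-2 and 7 rose and 2 fell in IL-12 against naive cells, beside the same shares of all tested genes. The 5 were 3 without IL-2 replicate 1, and the 1 that fell was 0 without it or without naive replicate 2.

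Among genes that answer to Mlx and its Mondo partners, 4 were tested and 1, Txnip, differed between the cytokines (25%). Of all tested genes 20.8% differed, and of the other network genes below 16.7%, so both lists lay near the background in that comparison. Txnip, a brake on glucose uptake, read 12.64 and 12.64 on the naive, 12.30 and 12.18 on the IL-2 and 11.63 and 11.21 on the IL-12 arrays (IL-12 less IL-2 -0.82 ± 0.14, limma adjusted p = 0.00501). Against naive cells Txnip fell under both cytokines, by 0.40 and 1.22 on the log2 scale, a call lost in IL-2 cells on leaving out any naive or IL-2 array, with no filter, with median centring and with array weights. Most called genes of this list went the other way. In IL-2 cells 3 rose and 1 fell (median 0.66), beside 25.8% and 19.9% of all tested genes. In IL-12 cells 2 rose and 1 fell (median 0.57), beside 31.2% and 26.7%. Tkt rose by 0.78 ± 0.11 and 1.12 ± 0.11, and Klf10 by 1.36 ± 0.22 and 1.35 ± 0.22. Mlxip, the Mondo partner of Mlx, read 10.58 and 10.10 on the naive, 9.75 and 9.82 on the IL-2 and 9.52 and 9.36 on the IL-12 arrays and fell against naive cells by 0.56 and 0.90 (limma adjusted p = 0.0181 and 0.00114). Of 6 other genes of the wider network that were tested, 0 were higher and 1 lower in IL-12 than in IL-2 cells by limma (at an unadjusted p under 0.05, 1 higher and 1 lower), namely Mycbp2, a very large ubiquitin ligase that binds Myc (-0.70 ± 0.14, limma adjusted p = 0.00938), which was not called when either IL-2 array or IL-12 replicate 2 was left out. Mycbp2 and Mlxip fell and Mycbp rose in both comparisons with naive cells, but in IL-2 cells the list held 0 rises without IL-2 replicate 1 and 1 fall without naive replicate 1 or either IL-2 array. Mycl, the third Myc gene, and Mlxipl stayed under the filter and were not tested, with values of 6.35 to 6.77 and 6.66 to 6.86 over the 6 arrays; they are named for that reason.

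**Figure D4:**
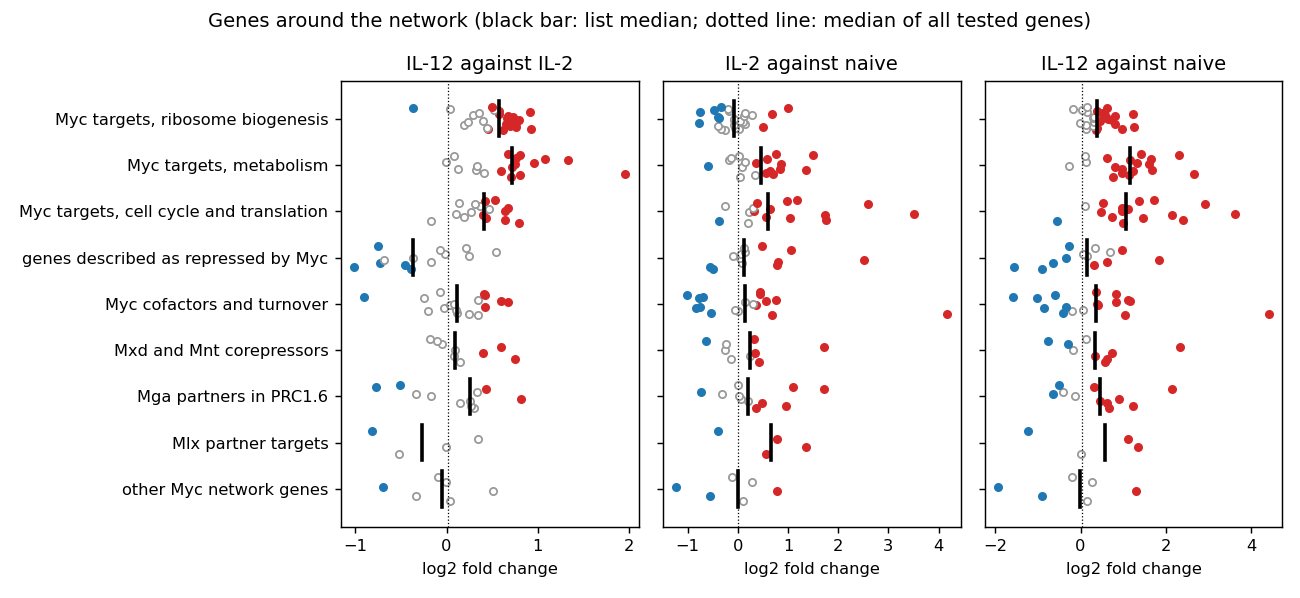
Log2 fold change (horizontal axes) of each tested gene of 9 lists around the network in the 3 comparisons, filled where limma's adjusted p was at most 0.05 (red higher, blue lower). Black bars mark list medians and dotted lines the median of all tested genes. Between IL-12 and IL-2 the medians of the Myc target lists lie at 0.57, 0.72 and 0.41 and that of the genes described as repressed by Myc at -0.37.

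Changes were also set beside the presence of a promoter E-box, without a test. Among tested genes with a promoter window, 1060 held CACGTG and 7890 did not. Between IL-12 and IL-2 cells 11.7% of the former and 9.54% of the latter were higher, with medians of 0.03 and 0.01. Between IL-2 and naive cells 24.2% and 26.5% were higher, and between IL-12 and naive cells 31.7% and 32.0%. Lower were 10.9% and 10.8%, 23.0% and 19.4%, and 27.9% and 26.3% in the same order, so the widest gap was among the falls in IL-2 cells. Of the Myc target lists, 5 of 22 ribosome genes, 4 of 16 metabolic genes and 9 of 19 cell cycle and translation genes with a window held an E-box there. Of the 4 members with an E-box, Max, Mnt and Mlx did not pass the test between the cytokines and Mxd4 fell.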

How the data were processed

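Deposited by the authors was a single table of log2 values over 35556 probe sets, and the submitters' processing notes name RMA, without version, settings or build, which are not given in the sources used here. The deposited arrays do not share 1 distribution: medians over all probe sets ran from 6.78 to 6.95, highest in naive cells, so calls depend on the scaling. The table held 0 value columns of no sample. The platform annotation, which can be old, gave 1 symbol to 21789 probe sets, several to 1621 and none to 12146, and symbols were updated through RefSeq's GRCm38.p6 gene table (21698 identifiers found). A gene's probe set with the highest mean was used, and genes were tested where 2 of 6 arrays passed 6.83, the 50th percentile of all values.

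One model in limma 3.58.1 (R 4.3.3; lmFit, eBayes) held all 6 arrays with a mean per group, 3 residual and 5.62 prior degrees of freedom, two-sided tests and Benjamini-Hochberg adjustment at 0.05 over tested genes; it was tested on simulated data. The number of arrays limits the precision.

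Members and lists were chosen with earlier results of these data known. Named were all members, up to 4 genes per list with the smallest adjusted p between the cytokines and up to 2 in each comparison with naive cells, and the 3 genes most correlated with each member spanning at least 1. Mycl and Mlxipl were named after their values were seen. Other settings covered the filter (none, or the 75th percentile), probe set averaging, quantile normalization, median centring, limma's trend and robust options, weights per array, separate fits of the compared groups, a replicate block, and omission of each array. Centring on tested genes and the antagonist mean without Mxd4 were added after seeing the data.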

Additional observations from a re-analysis of the deposited data

Results flagged for a closer look

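Mxd4 moved in opposite directions from the naive state under the cytokines: it rose by 0.38 ± 0.11 in IL-2 cells and fell by 1.86 on the log2 scale in IL-12 cells. The difference between these changes was -2.24 ± 0.11, tested as IL-12 against IL-2 cells in the same fit (limma adjusted p = 8.79e-06), and both IL-12 arrays lay below all other arrays. That test does not bear on the rise in IL-2 cells. The rise stayed between 0.28 and 0.47 in all alternatives. Its call was lost without either IL-2 array, after quantile normalization and with centring on tested genes.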

How the results depend on the processing

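Of 30 member values, 14 kept their direction and their call, or their lack of a call, under all alternatives. The called ones were both falls of Mxd4 in IL-12 cells, both rises of Mxd3, both falls of Mga and the rise of Myc in IL-12 against naive cells. All others of the 14 were called in no setting. Members called between the cytokines numbered 2, and 1 with no filter, with quantile normalization or with median centring. Genes called there numbered 2321, and 3839 with array weights and 3533 in a fit of the compared groups only, and members called between IL-12 and naive cells went from 9 to 5 with array weights. Leaving out 1 array at a time gave 737 to 3533 genes called between the cytokines and 3341 to 5786 between IL-2 and naive cells, 1 to 2, 2 to 5 and 4 to 10 members in IL-12 against IL-2, IL-2 against naive and IL-12 against naive cells, and 17 to 75 of the listed genes between the cytokines (57 with all arrays). Small differences changed sign: between the cytokines Mxd3 was 0.04 with quantile normalization, 0.00 with median centring and 0.01 with tested-gene centring, Mnt was 0.04 with quantile normalization and 0.01 with tested-gene centring, and single omissions gave -0.12 to 0.09 for Mxd3, -0.08 to 0.04 for Mnt and -0.42 to 0.07 for Mycn. Between IL-2 and naive cells Max was 0.05 with median centring and -0.15 to 0.05 over omissions, and Mxd1 was 0.00 with tested-gene centring. Myc less the antagonists' mean became 0.05 between the cytokines and -0.38 between IL-12 and naive cells once Mxd4 was left out of the mean. The cause was not tested. Median centring moved the calls between IL-2 and naive cells from 2873 higher and 2222 lower to 3282 and 1562, tested-gene centring to 2439 and 3006, and median centring those between IL-12 and naive cells from 3482 and 2972 to 4051 and 2279 (tested-gene centring 3134 and 3415). Between the cytokines 1095 higher and 1226 lower became 1364 and 1132 with tested-gene centring and 1099 and 971 with quantile normalization. Median centring moved the median change of all tested genes from 0.01 to 0.11 in IL-2 and from 0.04 to 0.16 in IL-12 against naive cells.

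With the replicate number as a replicate block, 2414, 5128 and 6471 genes and 2, 4 and 8 members were called in the same order of comparisons, and of the members' calls only that of Mnt in IL-12 against naive cells was lost (0.0521). Deviations of same-numbered arrays correlated at 0.15, 0.02 and -0.02, and no label says that the numbers pair samples, so they were not treated as pairs.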
